A study of Sus scrofa with 9 samples.

Results

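A set of 10 genes of lipid peroxide defence and iron handling were followed in transplanted pig kidneys. They were the glutathione peroxidase genes GPX1, GPX2, GPX3, GPX4, GPX7 and GPX8, the acyl-CoA synthetase gene ACSL4, the transferrin receptor gene TFRC, and the ferritin genes FTH1 and FTL. They were chosen by name, and a probe set stood for a gene when the array annotation gave it that symbol alone. Probe sets met this rule for 7 of the 10 genes, among 12361 genes named on 19124 probe sets. GPX1, GPX4 and GPX7 carried no such probe set and were not analysed here, so the enzyme at the centre of ferroptosis control, GPX4, is missing from what follows.

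Biopsies came from 9 male Yorkshire pigs of 30 kg, 1 Affymetrix array per animal. In every animal the right kidney was held without blood flow for 30 min while warm, then taken out, flushed and put back into the same pig (autotransplantation), and the left kidney was removed at that operation. NEVKP kidneys (n = 3) were kept for 8 h on normothermic ex vivo perfusion, that is, with warm fluid pumped through them outside the body. SCS kidneys (n = 3) lay for 8 h in static cold storage, and No Storage kidneys (n = 3) were reimplanted at once. All biopsies date from day 3 after surgery, and since the No Storage kidneys also went through warm ischemia and surgery, no group here was an uninjured kidney.

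Glutathione peroxidases reduce peroxides with electrons from glutathione. GPX4 acts on oxidised membrane phospholipids, and when it fails, iron-driven peroxidation of these lipids kills the cell by ferroptosis. ACSL4 supplies the polyunsaturated lipids that are oxidised, TFRC brings iron into the cell, and ferritin stores iron in an inert form. In the kidney, proximal tubule cells are the main source of the secreted peroxidase GPX3 in blood plasma, and ferroptosis of tubule cells is a recognised form of injury in rodent models of renal ischemia. Gene roles given here are those known from human and mouse.

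The values are log2 intensities, on which a step of 1 is a doubling of signal, and levels of different probe sets are not set against each other. Array medians ran from 5.705 to 5.797, and arrays correlated with each other at 0.9738 to 0.9907 across probe sets. The biopsies carried kidney transcripts: 10 of 15 proximal tubule markers and 3 of 5 thick ascending limb markers were measured, none of them dim (mean in the lowest 25% of probe sets, under 3.92), and the proximal tubule mean ran from 9.44 to 10.65 per array. By limma with Benjamini-Hochberg adjustment over all probe sets, 31 passed an adjusted p of 0.05 in SCS against No Storage and 0 in the other 2 comparisons. The thick ascending limb mean was 10.85 to 11.93 in NEVKP, 9.67 to 10.38 in SCS and 10.72 to 11.49 in No Storage. SCS thus lay below both other groups in this list, with 0 of its 3 genes past the adjusted threshold. The part of these cells in the values of other genes was not tested. Arrays SCS replicate 2 and NEVKP replicate 2 had the lowest weights in limma's array weighting, 0.46 and 0.57 against up to 1.62.

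None of the 7 genes passed the adjusted threshold in any comparison, which 0.162% of all probe sets did in SCS against No Storage and 0% did in NEVKP against No Storage and in NEVKP against SCS. The F test for any difference among the groups called 0 of the 7, against 0.00523% of all probe sets. At an unadjusted p under 0.05 the limma fit held GPX8 and GPX3 in SCS against No Storage (2 of 7, where 15.5% of all probe sets lay), GPX8 in NEVKP against No Storage (1 of 7, against 9.07%) and FTH1 in NEVKP against SCS (1 of 7, against 7.5%). The median log2 difference of the 7 genes was 0.08 in SCS against No Storage, -0.18 in NEVKP against No Storage and -0.24 in NEVKP against SCS, beside medians over all probe sets of 0.0096, -0.01 and -0.02.

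**Figure D1:**
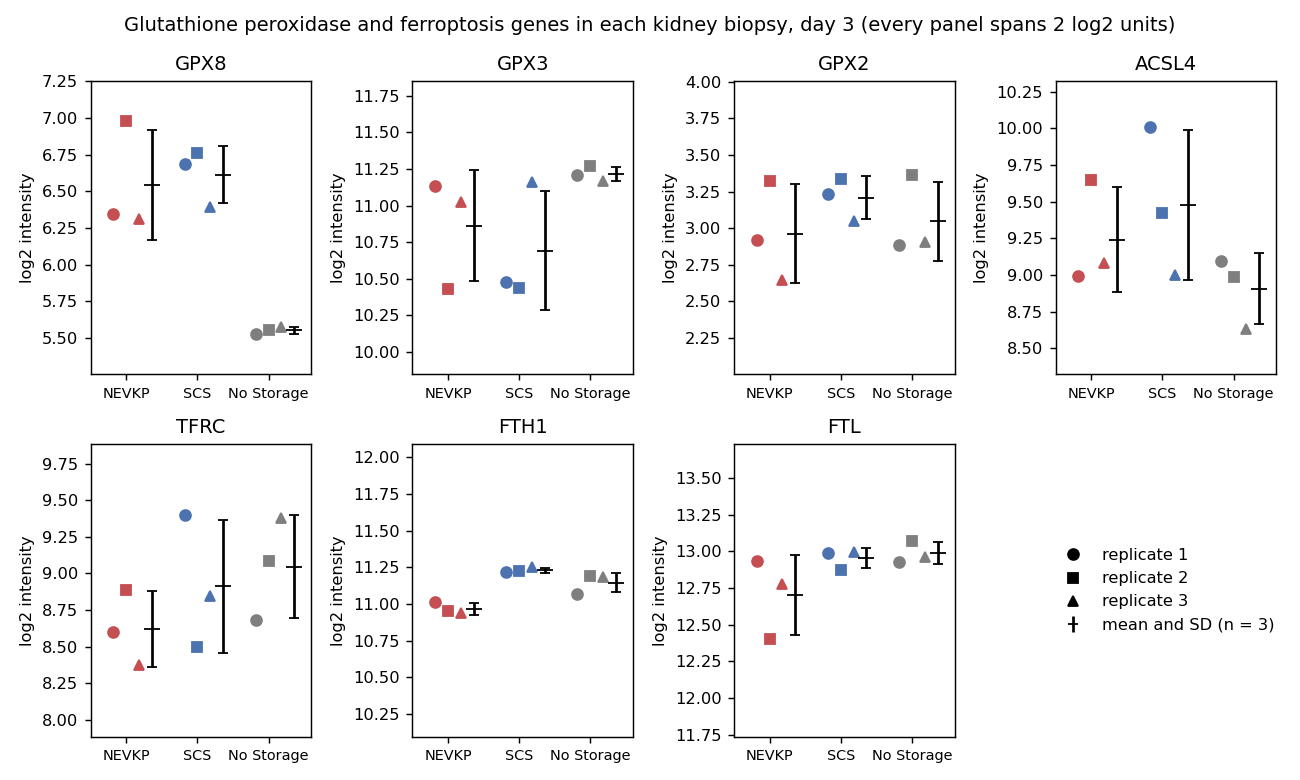
Log2 intensity of each gene in each of the 9 biopsies by group, with marker shapes for the replicates and bars for the mean and SD (n = 3 per group). GPX8 lay between 6.31 and 6.98 in the NEVKP and SCS biopsies and between 5.53 and 5.57 in the No Storage biopsies, while the 3 groups of TFRC overlapped.

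GPX8 (NCBI Gene ID 100519691), a peroxidase anchored in the membrane of the endoplasmic reticulum, stood apart most clearly. Its log2 intensity was 6.35, 6.98 and 6.31 in the 3 NEVKP biopsies and 6.68, 6.76 and 6.39 in the 3 SCS biopsies. In the No Storage biopsies it was 5.53, 5.55 and 5.57. Every stored or perfused kidney was above every No Storage kidney, and the NEVKP and SCS biopsies overlapped.

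SCS biopsies averaged 6.61 ± 0.19 and No Storage biopsies 5.55 ± 0.02 (SD, n = 3 each), a 2.09-fold difference. On the log2 scale this was 1.06 (SE 0.18, 95% interval 0.65 to 1.47), and the limma adjusted p = 0.0535 was just above the threshold. The difference for NEVKP, which averaged 6.55 ± 0.37 (n = 3), was 0.99 from the same No Storage arrays (SE 0.18, 95% interval 0.58 to 1.40, limma adjusted p = 0.299). Only 0.0889% of probe sets had a p this small or smaller in that comparison, and 0.324% in the SCS comparison. NEVKP and SCS differed by -0.07, with a 95% interval of -0.48 to 0.34 (limma adjusted p = 0.937).

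The SCS call for GPX8 turned on the settings. Over 18 alternatives its log2 difference ran from 0.99 to 1.17 and its limma adjusted p from 0.0317 to 0.225, under the threshold in 6. It passed without SCS replicate 3 (adjusted p = 0.0453) and without NEVKP replicate 2 (adjusted p = 0.0317), and leaving out each of the other 7 arrays in turn gave an adjusted p above the threshold. The array carries a further GPX8 probe set with identical values in all 9 arrays. GPX8 was counted as 1 of the 7 genes, while both probe sets stayed in the fit, the adjustment and the shares of all probe sets.

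Markers of other cells differed between the same biopsies, with 0 genes of the lists past the adjusted threshold in limma. The fibroblast and matrix marker list (9 of 10 genes measured, 0 dim) had a mean log2 level of 9.76 to 9.99 in NEVKP and 9.78 to 10.06 in SCS, against 9.15 to 9.35 in No Storage. The monocyte and macrophage list (9 of 11 measured, 0 dim) had a mean of 7.21 to 7.60 in NEVKP and 6.97 to 7.35 in SCS, against 6.77 to 6.83 in No Storage. At an unadjusted p under 0.05 against No Storage, 5 matrix genes were higher in NEVKP and 5 in SCS, and 6 and 3 macrophage genes, with 0 lower in either list. Of all named genes, 5.16% were higher and 4.76% lower in NEVKP at this p, and 7.79% and 9.05% in SCS. The same shares stand beside the counts of the lists below. For both lists the No Storage biopsies lay below all others, as they did for GPX8. Single probe sets did not overlap with No Storage, in either direction, for 16.5% of all in NEVKP and 22.9% in SCS. In a whole biopsy, a difference in the number of cells of a type and in RNA per cell cannot be told apart, and the part of these cells in the GPX8 values was not tested.

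GPX8 belongs with the enzymes that handle peroxide made during disulfide formation in the endoplasmic reticulum. Of 9 measured genes of 12 listed for oxidative folding in that compartment, 0 passed in any comparison by limma's adjusted p, and at an unadjusted p under 0.05 there were 3 higher and 0 lower in SCS against No Storage. The list median was 0.25 in SCS and 0.14 in NEVKP, each against No Storage, where the median of all named genes was 0.00017 and -0.0070. The protein disulfide isomerase gene PDIA6 had log2 values of 9.67, 9.52 and 9.69 in SCS, against 9.03, 8.86 and 9.11 in No Storage, a difference of 0.62 (SE 0.14, limma adjusted p = 0.0905). Its relative PDIA4 differed by 0.37 and the chaperone gene HSPA5 by 0.37. The oxidase genes ERO1A and ERO1B of the same list differed by -0.07 and -0.02 in SCS from No Storage (limma adjusted p = 0.887 and 0.974). In NEVKP against No Storage, PDIA6 differed by 0.26 (limma adjusted p = 0.617).

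PRDX4, the peroxiredoxin of the endoplasmic reticulum, had the smallest p among 90 measured related genes in SCS against No Storage. Its log2 values were 7.97, 8.02 and 7.93 in SCS, against 7.47, 7.42 and 7.33 in No Storage. These groups did not overlap, as was the case, in either direction, for 22.9% of all probe sets. The difference of 0.57 (SE 0.11) had a limma adjusted p = 0.0646. NEVKP biopsies, at 7.57, 7.61 and 7.66, lay between the other groups. All 3 groups lay apart, in some order, for 1.29% of all probe sets. PRDX4 differed by -0.36 between NEVKP and SCS (limma adjusted p = 0.587).

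GPX3 (NCBI Gene ID 396598), the secreted plasma peroxidase, lay lower in some stored kidneys. Its log2 intensity was 11.13, 10.43 and 11.03 in NEVKP and 10.48, 10.44 and 11.16 in SCS. It was 11.21, 11.27 and 11.17 in No Storage. NEVKP replicate 2 and SCS replicates 1 and 2 were low by about the same amount, and the other 3 biopsies of these groups came close to the No Storage values without reaching them.

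SCS biopsies averaged 10.69 ± 0.40 and No Storage biopsies 11.22 ± 0.05 (SD, n = 3 each), a difference of -0.52 (SE 0.23, 95% interval -1.03 to -0.02, limma adjusted p = 0.304). NEVKP averaged 10.86 ± 0.38 (n = 3) and differed from No Storage by -0.35 (SE 0.23, 95% interval -0.86 to 0.15, limma adjusted p = 0.67). Single arrays carried much of this: without NEVKP replicate 2 the NEVKP difference was -0.14, and without SCS replicates 1, 2 or 3 the SCS difference was -0.42, -0.40 or -0.76. The difference between NEVKP and SCS was 0.17 (95% interval -0.33 to 0.67).

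Proximal tubule markers ran alongside GPX3 from biopsy to biopsy. Their mean log2 level over 10 of 15 genes, none dim, was 10.54, 9.44 and 10.20 in NEVKP and 10.04, 9.55 and 10.34 in SCS. In No Storage it was 10.65, 10.53 and 10.63. By limma 0 of these genes passed the adjusted threshold against No Storage, with 3 lower and 0 higher in NEVKP and 4 lower and 1 higher in SCS at an unadjusted p under 0.05. The 3 biopsies lowest in GPX3 were also the 3 lowest in this list. How far the share of proximal tubule RNA sets the GPX3 value was not tested.

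**Figure D2:**
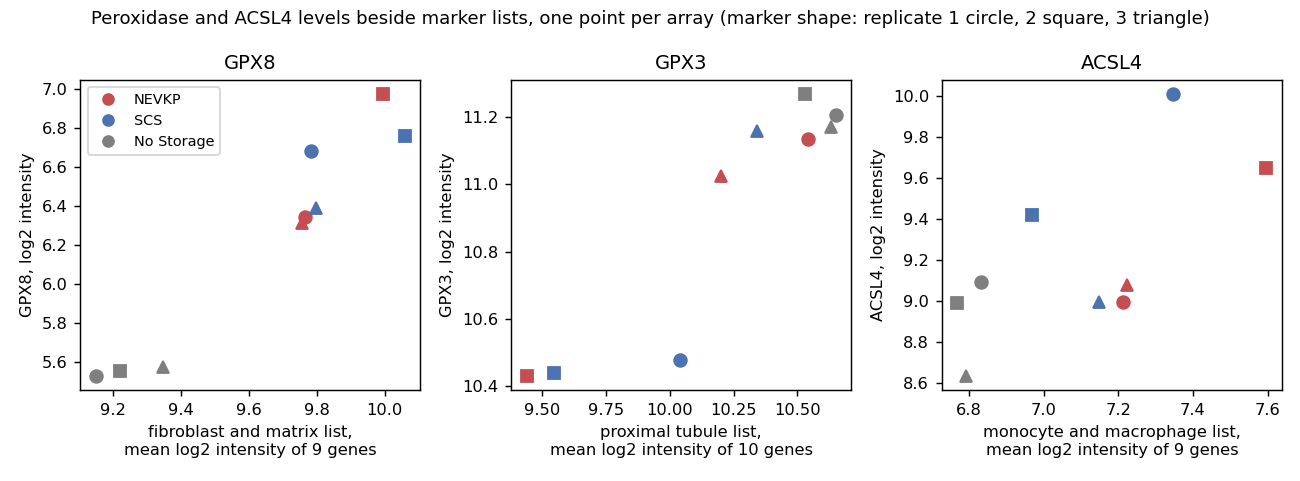
Log2 intensity of GPX8, GPX3 and ACSL4 on the vertical axes against the mean log2 intensity of a marker list on the horizontal axes, 1 point per array, coloured by group. No Storage arrays sit at the lower left for GPX8, and the arrays lowest in GPX3 (10.43, 10.44 and 10.48) have proximal tubule means of 9.44, 9.55 and 10.04.

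GPX2 (NCBI Gene ID 767625), the peroxidase of gut epithelium, was dim, with values of 2.92, 3.32 and 2.65 in NEVKP, 3.24, 3.34 and 3.05 in SCS, and 2.88, 3.36 and 2.90 in No Storage. The groups overlapped, and the differences of 0.16 in SCS and -0.09 in NEVKP from No Storage had limma adjusted p values of 0.766 and 0.94. At this signal a level of GPX2 transcript in these biopsies could not be read with confidence.

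ACSL4 (NCBI Gene ID 448980), which activates arachidonic and adrenic acid for entry into membrane phospholipids, varied most within groups among the 7 genes. Its log2 intensity was 9.00, 9.65 and 9.08 in NEVKP and 10.01, 9.42 and 9.00 in SCS. In No Storage it was 9.10, 8.99 and 8.63. SCS replicate 1 was highest and NEVKP replicate 2 next, and each group overlapped the others.

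SCS averaged 9.48 ± 0.51 and No Storage 8.91 ± 0.24 (SD, n = 3 each), a difference of 0.57 (SE 0.26, 95% interval -0.01 to 1.16, limma adjusted p = 0.335). It was 0.30 without SCS replicate 1. NEVKP averaged 9.24 ± 0.36 (n = 3) and differed from No Storage by 0.34 (95% interval -0.25 to 0.92, limma adjusted p = 0.747), and by 0.13 without NEVKP replicate 2. The 2 biopsies highest in ACSL4 were the 2 with the highest monocyte and macrophage means. These means were 7.35 in SCS replicate 1 and 7.60 in NEVKP replicate 2. Other biopsies did not all follow this order. SCS replicate 2, next in ACSL4 at 9.42, had the lowest mean of the SCS and NEVKP biopsies, 6.97. NEVKP replicates 1 and 3 had means of 7.21 and 7.22, with ACSL4 at 9.00 and 9.08, inside the No Storage range. The part of these cells in the ACSL4 values was not tested.

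Of 17 measured genes of 22 listed for lipid peroxidation and its substrates, 0 passed in any comparison by limma's adjusted p. LPCAT3 was listed but not measured. At an unadjusted p under 0.05 there were 3 higher and 0 lower in NEVKP and 1 higher and 1 lower in SCS, each against No Storage. ACSL1, another long-chain acyl-CoA synthetase, had log2 values of 9.06, 8.77 and 9.24 in SCS, against 10.49, 10.69 and 9.66 in No Storage, a difference of -1.26 (SE 0.40, limma adjusted p = 0.166). The fatty acid desaturase gene FADS2 differed by 0.97 in SCS and 0.92 in NEVKP, each from No Storage (limma adjusted p = 0.191 and 0.463), and the desaturase gene FADS1 by 0.65 in NEVKP. Without NEVKP replicate 2 the FADS1 difference in NEVKP was 0.29, and without SCS replicate 3 the FADS2 difference in SCS was 0.65. In SCS, FADS1 differed from No Storage by 0.46 (limma adjusted p = 0.468). PTGS2, the inducible cyclooxygenase often read as a ferroptosis marker, had log2 values of 5.18, 7.53 and 5.79 in NEVKP, against 5.28, 5.06 and 4.76 in No Storage. NEVKP replicate 2 stood far above the other arrays, and NEVKP replicate 1 lay within the No Storage range. The PTGS2 difference of 1.14 (SE 0.48, limma adjusted p = 0.531) was 0.46 without NEVKP replicate 2. Between NEVKP and SCS, the lipoxygenase gene ALOX12 differed by -0.47 and the synthetase gene ACSL3 by 0.58, which was 0.31 without SCS replicate 2. The list median was -0.12 in SCS and -0.03 in NEVKP, each against No Storage.

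TFRC (NCBI Gene ID 397062), the receptor that takes up transferrin-bound iron, had log2 values of 8.60, 8.89 and 8.37 in NEVKP and 9.40, 8.50 and 8.84 in SCS. In No Storage it had 8.68, 9.08 and 9.38. The groups overlapped throughout. NEVKP averaged 8.62 ± 0.26 and No Storage 9.05 ± 0.35 (SD, n = 3 each), a difference of -0.43 (SE 0.25, 95% interval -0.98 to 0.13, limma adjusted p = 0.648). For SCS, at 8.91 ± 0.45 (n = 3), the difference from No Storage was -0.13 (95% interval -0.69 to 0.42), and it turned to 0.07 without SCS replicate 2 and to 0.03 without No Storage replicate 3. Precursors of red cells also express TFRC. Of 10 markers listed for red cells and these precursors, 6 were measured. Dim were 4 of the 6, among them the haemoglobin gene HBB and the haem synthesis gene ALAS2. The mean of the 6 was 3.86 to 4.09 in NEVKP and 3.84 to 4.13 in SCS, against 4.13 to 4.29 in No Storage. SLC4A1, an anion exchanger that kidney intercalated cells express as well, was not dim and differed by -0.75 in NEVKP and -0.75 in SCS, each from No Storage. The mean of the other 5 genes was 3.35 to 3.47 in NEVKP and 3.19 to 3.47 in SCS, against 3.38 to 3.57 in No Storage, so those ranges overlapped. The part of these cells in the TFRC values was not tested.

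FTH1, the ferritin heavy chain that oxidises iron for storage, had the tightest values of the 7 genes. Its log2 intensity was 11.02, 10.95 and 10.94 in NEVKP and 11.22, 11.23 and 11.25 in SCS. It was 11.07, 11.19 and 11.18 in No Storage. The 3 groups did not overlap at all, with SCS highest, No Storage between and NEVKP lowest. All 3 groups lay apart in some order for 1.29% of all probe sets, and in this order for 0.12%.

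The steps were small. NEVKP averaged 10.97 ± 0.04 and SCS 11.23 ± 0.02 (SD, n = 3 each), a difference of -0.26 (SE 0.11, 95% interval -0.50 to -0.03, limma adjusted p = 0.648), so NEVKP stood at 0.833 of the SCS signal. From No Storage, at 11.15 ± 0.07 (n = 3), NEVKP differed by -0.18 (limma adjusted p = 0.653) and SCS by 0.08 (limma adjusted p = 0.771). The within-group SD of FTH1 was 0.047, and 0.235% of probe sets had a lower one. Because limma draws each probe set's spread toward the array-wide value, the SE of 0.11 is wider than the FTH1 arrays alone would give.

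FTL (NCBI Gene ID 397035), the ferritin light chain, had log2 values of 12.93, 12.40 and 12.78 in NEVKP and 12.99, 12.88 and 13.00 in SCS. In No Storage it had 12.92, 13.07 and 12.96. NEVKP replicate 2 was the lowest array and the groups overlapped in every comparison. NEVKP averaged 12.70 ± 0.27 and No Storage 12.99 ± 0.08 (SD, n = 3 each), a difference of -0.28 (SE 0.15, 95% interval -0.61 to 0.04, limma adjusted p = 0.596), which was -0.13 without NEVKP replicate 2. SCS averaged 12.95 ± 0.07 (n = 3), a difference of -0.03 from No Storage that turned to 0.01 without No Storage replicate 2 and to 0.0082 without SCS replicate 2. A further FTL probe set was dim, between 3.38 and 3.76 on all arrays. On it NEVKP (3.38 to 3.44) lay below SCS (3.50 to 3.67) without overlap, a difference of -0.14 (limma adjusted p = 0.799). These 2 groups did not overlap, in either direction, for 11.8% of all probe sets. Mammalian ferritin genes have processed copies elsewhere in the genome, so signal from such copies may be included, which was not tested.

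Counted over the 7 genes, arrays of SCS and No Storage did not overlap for GPX8 and FTH1 (higher) and GPX3 (lower), 3 of 7 where 22.9% of all probe sets did the same. For NEVKP against No Storage they were GPX8 (higher), GPX3 and FTH1 (lower), 3 of 7 against 16.5%. For NEVKP against SCS FTH1 alone did not overlap, 1 of 7 against 11.8%. Both comparisons with No Storage share the same 3 No Storage arrays.

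**Figure D3:**
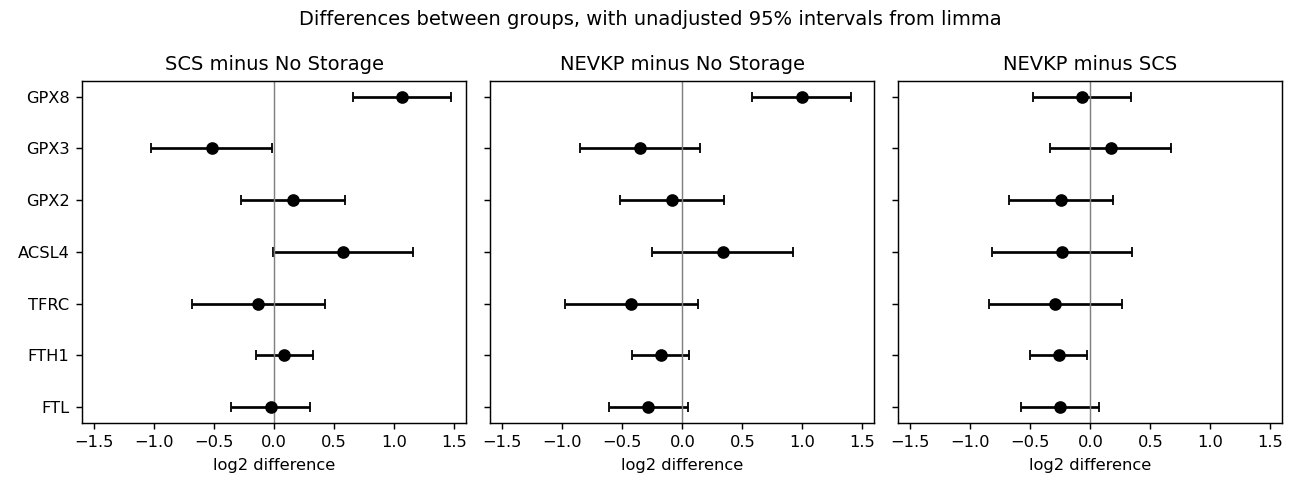
Log2 difference of each gene in the 3 comparisons with its unadjusted 95% interval from limma, and a line at 0. GPX8 is 1.06 and 0.99 above No Storage in SCS and NEVKP and -0.07 apart between NEVKP and SCS, and the intervals of GPX2, TFRC and FTL cross 0 in all 3 panels.

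Of 15 measured genes of 26 listed for iron uptake, storage and export, 0 passed in any comparison by limma's adjusted p. The listed genes SLC40A1, HMOX1 and TF were not among those measured. At an unadjusted p under 0.05 there were 1 higher and 2 lower in NEVKP and 1 higher and 2 lower in SCS, each against No Storage. The list median was -0.15 in NEVKP and -0.04 in SCS, each against No Storage, and 0.0048 between NEVKP and SCS. SLC39A14, a transporter of iron not bound to transferrin, had log2 values of 9.24, 9.27 and 9.19 in NEVKP and 10.08, 9.63 and 9.66 in SCS. In No Storage it had 9.25, 9.30 and 9.25, so SCS lay above both other groups. Of all probe sets, 22.9% did not overlap between SCS and No Storage and 11.8% between NEVKP and SCS, in either direction. The difference was 0.52 between SCS and No Storage (SE 0.14, limma adjusted p = 0.124) and -0.56 between NEVKP and SCS (SE 0.14, limma adjusted p = 0.52). NCOA4, the receptor that takes ferritin to the lysosome, differed by -0.42 in SCS from No Storage (limma adjusted p = 0.207), and the haem oxygenase gene HMOX2 by -0.44. HMOX2 differed by -0.39 in NEVKP from No Storage (limma adjusted p = 0.511). The ferroxidase gene CP had log2 values of 9.16, 10.65 and 9.50 in NEVKP, against 9.39, 8.74 and 8.66 in No Storage, with NEVKP replicate 2 highest and the groups overlapping. Its difference of 0.84 (limma adjusted p = 0.537) was 0.40 without NEVKP replicate 2. In SCS, CP differed from No Storage by 0.72 (limma adjusted p = 0.378).

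Glutathione peroxidases depend on glutathione and, for several members, on selenium. Of 9 measured genes of 13 listed for glutathione synthesis and recycling, 0 passed in any comparison by limma's adjusted p, and the median was -0.30 in SCS and -0.21 in NEVKP, each against No Storage. SLC7A11 and SLC3A2 were listed but not measured. At an unadjusted p under 0.05 against No Storage there were 1 lower in NEVKP and 2 lower in SCS, and 0 higher in either. The synthesis gene GCLM differed by -0.38 in SCS (limma adjusted p = 0.27) and the glutathione-degrading enzyme gene CHAC2 by -0.55 (adjusted p = 0.156). GCLC, the catalytic subunit of the rate-limiting ligase, had log2 values of 8.96, 7.80 and 8.50 in NEVKP and 9.43, 9.06 and 9.19 in SCS, a difference of -0.81 (SE 0.26, limma adjusted p = 0.599) that was -0.50 without NEVKP replicate 2. In No Storage GCLC had 8.57, 9.01 and 8.83, below SCS in every biopsy. Groups did not overlap, in either direction, for 22.9% of all probe sets in that comparison. Of the 9 genes, GCLC, GGT1 and GSR were higher in SCS than in No Storage, by 0.43, 0.32 and 0.23, and the others were lower.

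Of 19 genes listed for selenium supply and selenoprotein synthesis, 12 were measured, and SELENOP was not. Among these 12, 0 passed by limma's adjusted p in any comparison. Against No Storage, 1 was lower in NEVKP, and 1 was higher and 2 lower in SCS, at an unadjusted p under 0.05. LRP8, a receptor for selenoprotein P, had log2 values of 6.40, 5.92 and 5.74 in SCS, against 4.94, 5.36 and 5.34 in No Storage. The difference of 0.81 (SE 0.18) had a limma adjusted p = 0.0931, and LRP8 differed by -0.65 between NEVKP and SCS (adjusted p = 0.563). The selenocysteine lyase gene SCLY differed by -0.64 in SCS and -0.41 in NEVKP, each from No Storage, and the NEVKP difference was -0.26 without NEVKP replicate 2 or without No Storage replicate 3. The selenium-binding protein gene SELENBP1 differed by -0.77 in SCS from No Storage (adjusted p = 0.0989) and by 0.63 between NEVKP and SCS.

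Of 14 measured genes of 16 listed among other peroxide and superoxide enzymes, 0 passed by limma's adjusted p in any comparison, while at an unadjusted p under 0.05 there were 0 higher and 2 lower in NEVKP and 3 higher and 6 lower in SCS, each against No Storage. Beside PRDX4, the methionine sulfoxide reductase genes MSRB2 and MSRA differed by -0.84 and -0.87 (limma adjusted p = 0.0749 and 0.0976). MSRB2 had log2 values of 5.74, 6.16 and 6.15 in SCS, against 7.07, 6.89 and 6.60 in No Storage. These did not overlap, as for 22.9% of all probe sets in either direction. In NEVKP against No Storage, the catalase gene CAT differed by -0.44 and the peroxiredoxin gene PRDX6 by -0.31 (limma adjusted p = 0.536 and 0.509). In SCS, CAT and PRDX6 differed from No Storage by -0.53 and -0.16 (limma adjusted p = 0.213 and 0.590). SRXN1, which restores overoxidised peroxiredoxins, had 6.48, 6.43 and 6.24 in NEVKP and 7.71, 7.32 and 6.84 in SCS, a difference of -0.91 (SE 0.23, limma adjusted p = 0.52).

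The list for ferroptosis defence outside the peroxidases had 14 of 22 genes measured, with 0 passing in any comparison by limma's adjusted p. Not all of its genes are defences: it also holds KEAP1, DPP4 and BAP1, so its counts mix genes of opposite role. At an unadjusted p under 0.05 in SCS against No Storage, 2 were higher and 0 lower. These 2 were the small heat shock protein gene HSPB1 (0.69, limma adjusted p = 0.161, and 0.43 without SCS replicate 2) and the stress transcription factor gene ATF4 (0.36, adjusted p = 0.225). NQO1, a quinone reductase, spread widely, with log2 values of 9.11, 6.68 and 7.21 in NEVKP and 10.16, 8.69 and 9.56 in SCS, a difference of -1.80 (SE 0.74, limma adjusted p = 0.648). In No Storage NQO1 ran from 7.43 to 10.18, a range that held all 3 SCS values and 1 NEVKP value.

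Over the 90 related genes measured of 130 listed, 12.2% were higher and 14.4% lower in SCS than in No Storage at an unadjusted p under 0.05, where 7.79% and 9.05% of all 12361 named genes were. For NEVKP against No Storage the shares were 4.44% and 6.67%, against 5.16% and 4.76% of all named genes. For NEVKP against SCS they were 7.78% and 12.2%, against 4.42% and 3.29%. None of the 90 related genes passed the adjusted threshold, and their smallest limma adjusted p was 0.0646. The named genes were not matched to the related genes in signal, and dim genes stayed in both sets. How far this sets the shares apart was not tested.

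**Figure D4:**
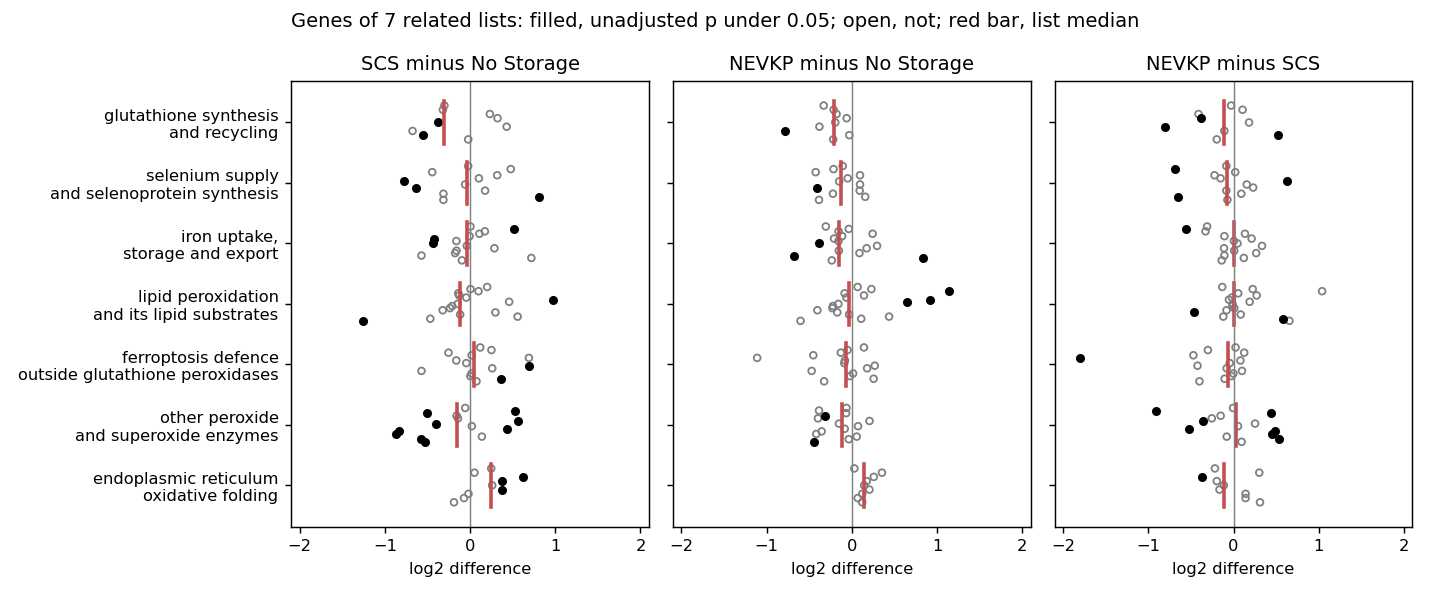
Log2 difference of every measured gene of 7 related lists in the 3 comparisons, with filled points for an unadjusted limma p under 0.05 and a red bar at each list median. In SCS against No Storage the folding list sits at a median of 0.25. The glutathione synthesis and recycling list, which also holds genes of glutathione breakdown, sits at -0.30. NQO1, at -1.80 between NEVKP and SCS, lies far from its list.

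For each gene the 3 genes most alike over the 9 arrays were sought among named genes outside the dimmest 25%, by Pearson correlation. All arrays entered together, so differences between the groups are part of these values. They are the highest among 9769 candidates (9770 for GPX2) over only 9 arrays, and high values can arise by chance, which was not tested. GPX8 ran closest to the sulfotransferase gene CHST10 (0.979), the focal adhesion gene TES (0.976) and EVI2B, a membrane protein of leukocytes (0.976). GPX3 was closest to MORN2 (0.958), the thioredoxin-like gene TXNDC17 (0.955) and the phosphodiesterase gene SMPDL3A (0.955). ACSL4 was closest to IL1RL1, the interleukin-33 receptor (0.978), then to PDLIM5 (0.955) and FAM111A (0.945). FTL was closest to the mitochondrial adenylate kinase gene AK4 (0.974), GSTO1 (0.961) and the glutamine transporter gene SLC1A5 (0.956). FTH1 had lower values, led by TBC1D8 (0.926), and TFRC the lowest, led by MON2 (0.888). GPX2, at its dim signal, was closest to EGR1 (0.937).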

How the data were processed

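The authors deposited log2 intensities, 1 value per probe set and array, made with RMA (background correction, scaling between arrays and summary per probe set), per the submitters' processing notes, which also name limma 3.34.14. Filters and scan dates: not given in the sources used here. Of 19124 probe sets, 13323 had 1 symbol in the array annotation, 357 several and 5444 none, and 7 symbols were updated through the gene ID. The probe set with the highest mean stood for a gene. With R 4.3.3, limma 3.58.1 (lmFit, eBayes) was run on all 9 arrays with group as the only factor, which left 6 residual and 4.12 prior degrees of freedom. Adjusted p values are limma's, by Benjamini-Hochberg over all probe sets, with a threshold of 0.05. The fit was tested on simulated data. Each array is a different animal, and their number limits the precision.

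Genes, lists and tests were chosen with earlier results of these data known. Named genes were the 10 given by name, up to 3 genes per list and comparison by smallest p, and up to 3 most alike per gene. Alternatives were a fit with the replicate number as block, array weighting, a robust prior with a trend, leaving out the dimmest 25% of probe sets, centred arrays, averaging all probe sets of a gene, fits of 2 groups at a time, and leaving out each array in turn. After seeing the data, 4 were added: leaving out both arrays of lowest weight, leaving out repeated identical probe sets, leaving out each array in turn for the related genes (differences of means, with no test), and the red cell list without SLC4A1.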

Additional observations from a re-analysis of the deposited data

Results flagged for a closer look

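FTH1 lay on opposite sides of the No Storage mean, below it in all 3 NEVKP biopsies and above it in all 3 SCS biopsies. The difference between NEVKP and SCS was -0.26 on the log2 scale and did not pass limma's test (limma adjusted p = 0.648). Groups of 3 arrays are too small for a test of single outlying arrays.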

How the results depend on the processing

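With 3 animals per group, the SE of a log2 difference ran from 0.11 for FTH1 to 0.26 for ACSL4, and the signal of GPX2 was dim. The count of the 7 genes past the threshold in SCS against No Storage was 0, and 1 (GPX8) with a trended and robust prior, with array weights, without the dimmest 25% and with the compared groups alone. It was 0 to 1 without single arrays. It stayed 0 in the other 2 comparisons under all alternatives run. The count of all probe sets in that comparison was 31, and 83 with the trended prior, 93 with array weights, 82 without the dimmest 25%, 49 with centred arrays and 0 without both arrays of lowest weight, and 0 to 158 without single arrays. For NEVKP against SCS it was 1 with array weights and 0 to 1 without single arrays. For the F test it was 1, and 5 with array weights, 0 with the replicate block, 0 without both arrays of lowest weight and 0 to 9 without single arrays. The cause was not tested. Of 9 same-numbered pairs, 1 had deviations from the group means that correlated above 0.1. Such correlations cannot show whether same-numbered animals were handled together, and the labels give only a replicate number. With the replicate number as a block GPX8 differed by 1.06 in SCS (adjusted p = 0.0593), and no gene of the 7 changed its call. Small differences turned sign without single arrays: TFRC in SCS ran from -0.38 to 0.074, FTL in SCS from -0.062 to 0.011, GPX2 in NEVKP from -0.27 to 0.071, each against No Storage, and GPX8 from -0.28 to 0.048 and ACSL4 from -0.47 to 0.033 between NEVKP and SCS. Without both arrays of lowest weight, TFRC was 0.074 and FTL 0.0082 in SCS against No Storage. Averaging all probe sets of a gene and the omission of repeated identical probe sets changed no call of the 7 genes.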

Other observations

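Relatives outside the list of 10 were on the array as well. GPX5, known as the epididymal peroxidase, had 2 probe sets and GPX6 had 1, all dim. FTHL17, a ferritin heavy chain-like gene, had a mean of 4.22. Their log2 differences ran from -0.23 to 0.41 over the 3 comparisons, with a smallest limma adjusted p of 0.548 and 0 of 4 probe sets at an unadjusted p under 0.05.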
